A study of Mus musculus with 2 samples.

Results

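Cells keep large parts of the genome silent through marks on histone H3 and H2A. RNA levels are given here for the genes that write, read and transmit those marks in invariant natural killer T (iNKT) cells taken from mouse thymus at an early step. The set was a fixed list of 43 gene names. Of these, 42 were found by symbol among the 16386 genes of the deposited tables, and Fam208a was not found under that name. The material was total RNA of sorted stage 1 iNKT cells, from C57BL/6 thymus at 5 weeks of age. There were 2 libraries, 1 from wild-type mice and 1 from Uhrf1 KO mice, in which the gene for the protein that guides Dnmt1 to freshly copied DNA is disrupted. How many mice were pooled, how the gate was set, and which promoter or allele drove the deletion is not stated in the labels, so how complete a model the KO is cannot be judged from them. With 1 library a genotype no test was possible, and each difference below is a difference between these libraries that has no replicate check.

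On the H3K9 side of the set, methyltransferases mark lysine 9 of histone H3, and HP1 proteins bind the mark, often at sites chosen by KRAB zinc finger proteins through the corepressor TRIM28. On the other side, Polycomb repressive complex 2 (PRC2) methylates lysine 27 of histone H3, and Polycomb repressive complex 1 (PRC1) places ubiquitin on histone H2A and compacts chromatin. UHRF1 itself binds histone tails that carry methylated H3K9 as well as hemimethylated DNA. In mouse iNKT cells, Ezh2 of PRC2 and the opposing H3K27 demethylase Kdm6a (UTX) are known from gene deletions to shape the lineage and its master factor PLZF.

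Levels are FPKM, the authors' unit that corrects for transcript length and library size. The difference is the log2 ratio of KO to wild type after adding a pseudocount of 1 FPKM to each. Where a pair of values stands without labels, the wild type comes first and the KO second. A gene was measured when its mean FPKM was at least 1, and it is said to have risen or fallen when the log2 ratio was at least 1 in size. Fold changes come from the deposited count column, with 95% exact (Clopper-Pearson) intervals from reads. Such intervals and floors reflect counting error alone: with no molecular identifiers, PCR copies are counted as if separate molecules.

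Gene reads numbered 26005817 for wild type and 12189848 for KO. Uhrf1 stood at 35.3 FPKM (wild type) and 0.626 (KO). The 7 general T cell markers and the 7 iNKT markers were all measured. The summed FPKM of the T cell markers was 3763 and 4740. For the iNKT markers it was 761 and 321, with 4 fallen, 1 risen and a median log2 ratio of -1.07. Among these, Zbtb16, which encodes PLZF, had 114 and 41.9, Icos 247 and 62.0, Il4 316 and 150, and Gata3 56.9 and 24.4, while Slamf1 rose from 1.20 to 5.59. Markers of other cells differed between the libraries. The summed FPKM of 8 naive T cell markers was 398 (wild type) and 1599 (KO). That of 10 macrophage and dendritic cell markers was 328 and 3095, that of 10 stromal markers 33.4 and 105, and that of 8 erythroid markers 358 and 1697. It was 159 and 1.72 for Sox13, Blk and Maf, listed as gamma-delta T cell markers, while Trdc of that list was not found. Whether gamma-delta cells or iNKT cells carried these transcripts was not tested. For 6 neutrophil markers it was 190 and 15.0, but they did not move together: S100a8 had 86.4 and 0, S100a9 95.6 and 0.908, and Camp 0.0956 and 13.7, most of the KO sum. For 6 B cell markers it was 17.4 and 15.6, nearly all of it from Cd79b at 17.4 and 14.8. For 8 double-positive thymocyte markers it was 385 and 478. Of these lists, Ms4a1, Ebf1 and Pax5 of B cells, Slc4a1 of red cells, Itgax of dendritic cells, Elane of neutrophils and Krt8 of epithelium were at 0 in both libraries. The part of these cells, and of the lower iNKT marker sum, in the results below was not tested.

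Members Suv39h1, Atrx and Rbbp7 lie on chromosome X. So do Kdm6a, Phf8, Bcor, Bcorl1, Scml2, Zmym3, Hdac6 and Hdac8 of the partner lists, which also hold the Y-linked Uty. The labels do not give the sex of the mice, and X-linked state and genotype cannot be told apart. The libraries differed in sex-linked genes, chosen after their values were seen. Xist, at a locus shared with Tsix, had 1 wild-type read and 371 KO reads. The Y-linked gene Ddx3y had 2152 and 1305 reads, Eif2s3y 1291 and 1550, Kdm5d 195 and 9, and Uty 351 and 0. The summed FPKM of 24 genes of cycling cells was 1019 and 834, with 6 of them fallen and 2 risen. The part of either in the results was not tested.

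Of the 42 silencing genes, 40 were measured, and most of them differed little or moderately. In the KO 7 rose, 9 fell and 24 stayed within the size rule, so 40.0% of measured members were past it. Over all 9955 measured genes 44.9% were past it, 21.3% by a rise and 23.6% by a fall. The share of members is near this background and is not a result about the members. Their median log2 ratio was 0.14, with 22 higher and 18 lower in the KO, against a median of -0.0048 over all measured genes. When the upper quartiles of the libraries were set equal, which moved the median of all genes to -0.32, the split was 3 risen and 10 fallen (15.7% and 29.4% of all genes). With a pseudocount of 5, 4 rose and 6 fell, against 13.0% and 12.6% of all genes. With the filter raised to a mean of 5 FPKM, 6 rose and 9 fell of 35, against 20.3% and 17.8%. A size rule of 2 gave 1 risen (Pcgf5) and 2 fallen (Cbx7, Phf19), against 8.55% and 10.3%, and a rule of 0.5 gave 12 and 10, against 33.5% and 34.6%. Without the X-linked members 7 rose and 8 fell of 37. In RNA from many cells, fewer cells of a type and less RNA per cell cannot be told apart.

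**Figure D1:**
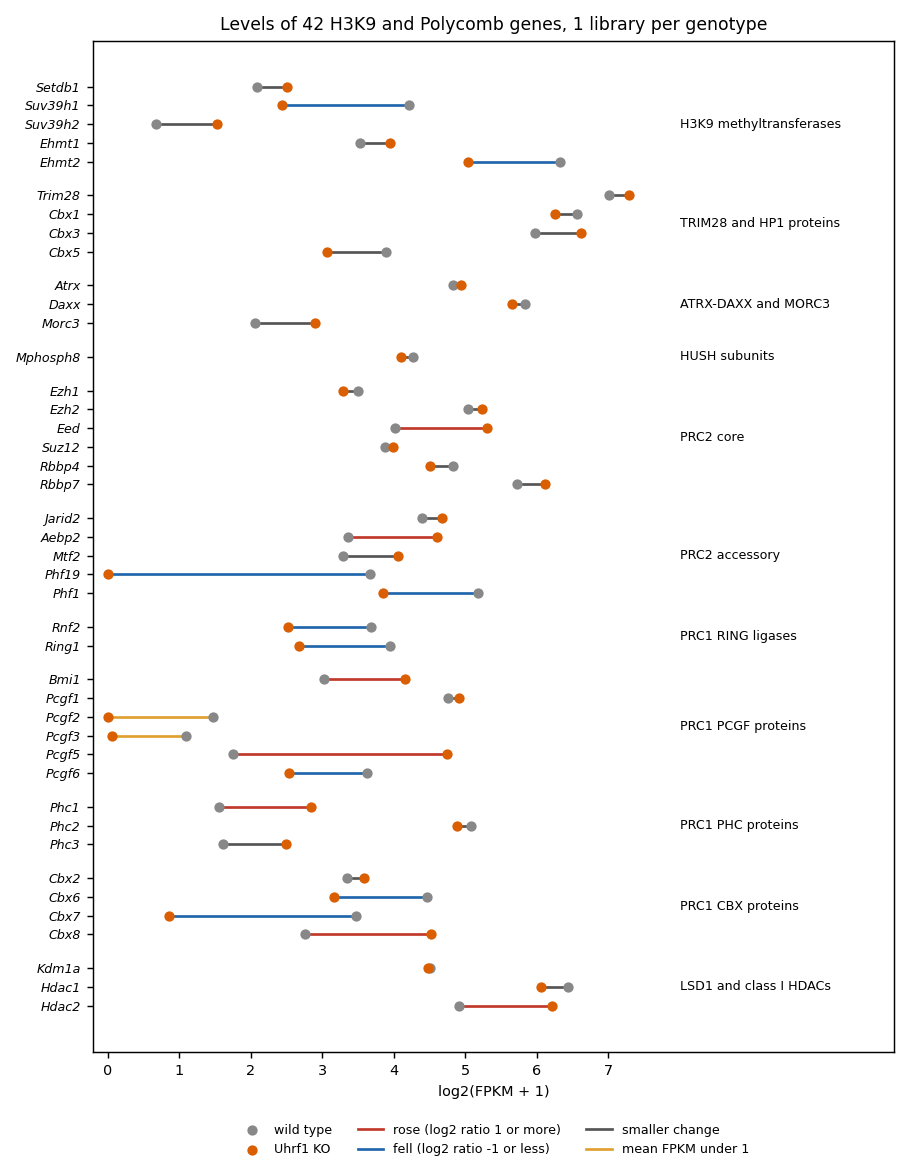
Level of each of the 42 members as log2(FPKM + 1) on the x axis, wild type in grey and Uhrf1 KO in orange, 1 library each, grouped by complex on the y axis. The line colour gives the call. Phf19 and Pcgf2 sit at 0 in the KO, while Trim28 is the highest member in both libraries.

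The share of calls differed between the complexes, each a short list. Of 13 measured genes on the H3K9 side 2 were past the size rule (15.4%, Fam208a not counted). Of 11 PRC2 genes 4 were (36.4%), of 13 PRC1 genes 9 (69.2%), and of 3 LSD1 and HDAC genes 1 (33.3%). The share over all measured genes was 44.9%. The complexes were also unlike in level: the summed wild-type FPKM was 513 over 13 H3K9-side genes and 159 over 15 PRC1 genes. Genes of low level passed the rule more often in general. Among genes with a mean FPKM from 5 to 25, 47.3% of all genes and 12 of 22 members were past it. The only member from 100 up, Trim28, was not past it (13.7% of all genes). From 25 to 100 the share was 32.3% of all genes and 3 of 12 members, and from 1 to 5 it was 61.1% and 1 of 5. No difference between complexes was tested.

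**Figure D2:**
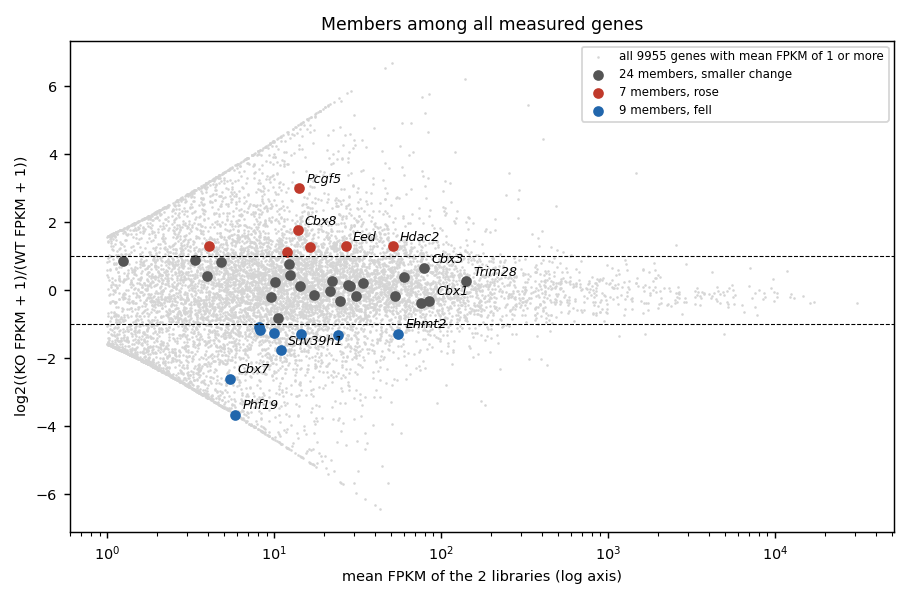
The log2 ratio of KO to wild type with a pseudocount of 1 FPKM (y axis) against the mean FPKM on a log axis (x axis) for 9955 measured genes in grey and the 40 measured members in colour. Dashed lines mark the size rule at -1 and 1. The members lie inside the cloud of all genes, with Pcgf5 at 2.99 and Phf19 at -3.67 as their ends.

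Among the H3K9 methyltransferases, Suv39h1 and Ehmt2 fell and none rose. Suv39h1 (chromosome X, 8061171 to 8074760, the RefSeq gene span in mm10, as for all positions of genes here), which makes the trimethyl mark of constitutive heterochromatin, had an FPKM of 17.5 and 4.41. That was 4.01-fold lower (interval 3.45 to 4.69) on 1609 and 188 reads. Its paralogue Suv39h2 had 0.594 and 1.89, on 115 and 181 reads, which is 3.36-fold higher (interval 2.64 to 4.28) but a log2 ratio of only 0.86 at this low level. The pair thus differed in direction. Suv39h1 made up 96.7% (wild type) and 70.0% (KO) of their summed FPKM.

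Ehmt2, which encodes G9a, the main writer of H3K9 dimethylation outside heterochromatin (chromosome 17, 34898463 to 34914073), had 78.8 and 31.8. The fold was 2.68 lower (interval 2.49 to 2.88). Its partner Ehmt1, which encodes GLP, had 10.5 and 14.5. Setdb1, the enzyme brought in by TRIM28, had 3.26 and 4.67. The latter shares its locus with Cers2, at 49.2 and 14.9, and Suv39h2 shares one with Dclre1c, at 7.65 and 10.9. Where strand was not used in counting, reads of such neighbours cannot be told apart.

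TRIM28 and the HP1 readers were among the most abundant members, and none passed the size rule. Trim28 ranked first in both libraries, at 128 and 155. Cbx1 (HP1 beta) had 93.8 and 75.3, Cbx3 (HP1 gamma) 61.6 and 97.1, and Cbx5 (HP1 alpha) 13.8 and 7.38. Cbx3 made up 36.4% of the HP1 sum (wild type) and 54.0% (KO), and Cbx1 55.4% and 41.9%. RefSeq names 6 pseudogenes after Cbx3, and Cbx1 shares its locus with Gm11517, at 550 and 410, so both values are uncertain. With upper quartiles set equal, the log2 ratio of Cbx5 moved from -0.82 to -1.11, past the rule.

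The H3.3 deposition pair Atrx and Daxx, which keeps repeats silent, differed little. Atrx had 27.4 and 29.6, with the most reads of any member in both libraries, 13523 and 7149. Daxx had 56.3 and 49.6. Morc3, a nuclear body ATPase that works with them, had 3.18 and 6.48, a log2 ratio of 0.84. Mphosph8, the chromodomain subunit of the HUSH complex, had 18.2 and 16.2, at a locus shared with Gm16973 (8.19 and 3.22). The HUSH scaffold Fam208a is listed under its older symbol D14Abb1e, matched by its Entrez identifier 218850, and is not counted among the 42. It had 5.81 and 2.33 (log2 ratio -1.03), a fall just past the size rule, at a locus that also holds Ccdc66.

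Within the PRC2 core only Eed passed the size rule. Eed, which binds the H3K27 trimethyl mark and stimulates the enzyme (chromosome 7, 89954654 to 89980976), rose from 15.2 to 38.5. The fold was 2.61 higher (interval 2.41 to 2.84), and its log2 ratio of 1.29 was 0.96 with upper quartiles set equal. Of 1085 genes with a wild-type FPKM from 12.1 to 19.0, 9.31% rose as far as Eed. Ezh2, the main methyltransferase of dividing cells, had 31.7 and 36.8, and its paralogue Ezh1 had 10.3 and 8.76. Ezh2 held 75.4% of their sum (wild type) and 80.8% (KO). Suz12, the scaffold, had 13.6 and 14.9. The histone-binding subunits, which other complexes also use, had 27.5 and 21.8 (Rbbp4) and 51.8 and 68.1 (Rbbp7). Rbbp7 stands at a locus of 6 genes, and Rbbp4 shares one with Sync.

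The accessory subunits that set which PRC2 form is made moved both ways. Phf19, a Polycomb-like protein that carries PRC2 to CpG islands (chromosome 2, 34893752 to 34914353), had 1082 wild-type reads (11.7 FPKM) and no KO read. Against a floor of 3 KO reads it was 169-fold lower, and the interval for the fold began at 137. Among the 1083 genes whose wild-type FPKM lay from 9.37 to 14.6, Phf19 included, 47 (4.34%) had no KO read. The related Phf1 (chromosome 17, 26933127 to 26937908) fell from 35.1 to 13.4, 2.82-fold lower (interval 2.48 to 3.23). Mtf2, the third Polycomb-like gene, had 8.81 and 15.7, a log2 ratio of 0.77. Their summed FPKM was 55.6 and 29.1, of which Mtf2 held 15.8% (wild type) and 54.0% (KO).

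Aebp2 and Jarid2 belong to the other PRC2 form, which Polycomb-like proteins do not enter. Aebp2 (chromosome 6, 140622454 to 140678472) rose from 9.24 to 23.4, 2.45-fold higher (interval 2.29 to 2.62). Its log2 ratio of 1.254 was 0.997 with a pseudocount of 5 and 0.94 with upper quartiles set equal, both short of the rule. Jarid2 had 20.0 and 24.6.

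The promoter of Phf19 is printed because no other measured member went to 0. The sequence is RefSeq's, in the GRCm38.p6 assembly (mm10), 250 bases upstream of a listed start, at chr2:34913977-34914226 on the minus strand. This start is the listed one nearest to the 5′ end of the locus in the deposited files, the rule used for all promoters here. Bases checked after this start matched no annotated (GENCODE) transcript of Phf19 in either direction, unlike those of the other promoters printed here. Which start of Phf19 was used was not analysed. The window lies inside the wider RefSeq span given above, so it is not upstream of the outermost start. CpG dinucleotides, the unit that UHRF1 and DNMT1 keep methylated, are in capitals here and in the promoters shown further on. It holds 31 of them.
Phf19: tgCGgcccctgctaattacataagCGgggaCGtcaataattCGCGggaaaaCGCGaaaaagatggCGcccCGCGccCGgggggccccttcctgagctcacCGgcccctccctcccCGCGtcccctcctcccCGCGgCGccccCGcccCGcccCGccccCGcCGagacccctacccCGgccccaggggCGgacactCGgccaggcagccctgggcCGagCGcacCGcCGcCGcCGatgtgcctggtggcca

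Both RING ligases, the catalytic subunits of PRC1, fell. Rnf2, which encodes RING1B (chromosome 1, 151469398 to 151500991), had 11.8 and 4.74, 2.32-fold lower (interval 2.07 to 2.60). Ring1, which encodes RING1A (chromosome 17, 34020792 to 34024680), had 14.5 and 5.40, 2.85-fold lower (interval 2.26 to 3.63), on 517 and 85 reads. Every PRC1 form holds a RING protein, and the sum of the pair was 26.3 and 10.1. Their log2 ratios of -1.16 and -1.27 were -0.79 and -0.90 with a pseudocount of 5. Among genes of like wild-type level, 26.3% of 1084 genes fell as far as Rnf2 and 24.4% of 1076 as far as Ring1.

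The PCGF proteins, which pair with a RING ligase and define the PRC1 variants, changed in make-up. Pcgf5 (chromosome 19, 36348329 to 36460970) rose from 2.38 to 25.9 on 128 and 670 reads, 11.2-fold higher (interval 9.23 to 13.6). Among the 825 genes whose wild-type FPKM lay from 1.91 to 2.98, Pcgf5 included, 30 (3.64%) rose as far. Bmi1 (Pcgf4), of canonical PRC1 (chromosome 2, 18677018 to 18686629), rose from 7.13 to 16.8, 2.58-fold higher (interval 2.40 to 2.78). Its log2 ratio of 1.13 was 0.84 with a pseudocount of 5 and 0.82 with upper quartiles set equal.

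Pcgf6, of the variant that represses germline genes in embryonic stem cells (chromosome 19, 47033617 to 47050939), fell from 11.4 to 4.79, 2.32-fold lower (interval 1.96 to 2.76). Its log2 ratio of -1.10 was -0.74 with a pseudocount of 5. Pcgf1, of the variant with KDM2B and BCOR, had 26.1 and 29.1. The members under the filter were both from this family. Pcgf2 had 116 reads and 0, an FPKM of 1.77 and 0. Against a floor of 3 KO reads Pcgf2 was 18.1-fold lower, and the interval for the fold began at 14.5. Pcgf3 had 166 and 3 reads, a ratio of 25.9 (interval 8.72 to 127). Summed over the 6 genes the FPKM was 49.9 and 76.6. Pcgf5 held 4.78% of it (wild type) and 33.8% (KO), and Pcgf6 22.8% and 6.25%.

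The promoters of these opposed paralogues follow, again as 250 upstream bases from RefSeq in GRCm38.p6. That of Pcgf5 lies at chr19:36378817-36379066 on the plus strand and holds 4 CpG dinucleotides, and that of Pcgf6 at chr19:47050907-47051156 on the minus strand and holds 14. The Pcgf6 window overlaps the 5′ edge of the RefSeq span of that gene. RefSeq lists 3 starts for Pcgf5. The window shown ends where the narrower locus in the deposited files begins, inside the RefSeq span, and the windows of the other starts hold 23 and 28 CpG dinucleotides. Which start was used was not analysed here.
Pcgf5: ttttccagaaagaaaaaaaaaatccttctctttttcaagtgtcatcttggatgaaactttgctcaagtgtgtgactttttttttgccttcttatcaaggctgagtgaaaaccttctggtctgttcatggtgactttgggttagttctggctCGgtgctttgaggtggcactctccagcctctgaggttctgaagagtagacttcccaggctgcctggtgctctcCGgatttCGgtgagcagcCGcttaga
Pcgf6: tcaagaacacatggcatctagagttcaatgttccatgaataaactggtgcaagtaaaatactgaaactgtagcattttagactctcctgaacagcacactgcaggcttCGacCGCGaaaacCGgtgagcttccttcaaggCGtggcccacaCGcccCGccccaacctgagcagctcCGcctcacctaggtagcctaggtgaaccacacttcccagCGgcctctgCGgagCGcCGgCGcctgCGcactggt

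Among the PHC proteins, whose SAM domains link PRC1 units into polymers, Phc2 was the most abundant at 32.8 and 28.7. Phc1 (chromosome 6, 122317731 to 122340227) rose from 1.95 to 6.19, 2.996-fold higher (interval 2.46 to 3.65), and its log2 ratio of 1.28 was 0.69 with a pseudocount of 5. Phc3 had 2.05 and 4.65, a log2 ratio of 0.89.

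The Polycomb CBX proteins read the H3K27 trimethyl mark for canonical PRC1, and this family changed its leading member. Cbx7 (chromosome 15, 79915804 to 79971143) fell from 10.1 to 0.819, on 611 and 22 reads, 13.0-fold lower (interval 8.52 to 20.9). Cbx6 (chromosome 15, 79823898 to 79834333), its neighbour, fell from 21.1 to 7.99, 2.67-fold lower (interval 2.43 to 2.93). Both genes thus fell on the same stretch of chromosome. The locus of Cbx6 also holds Npcd and Nptxr, which were at 0.

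On chromosome 11, Cbx8 (119036303 to 119040913) rose from 5.77 to 21.9 on 152 and 252 reads, 3.54-fold higher (interval 2.88 to 4.35). Cbx2 (119023019 to 119031275) beside it had 9.15 and 10.96. The summed FPKM of the 4 members was 46.1 and 41.6. Cbx6 held the largest share in the wild type, 45.8%, and Cbx8 in the KO, 52.5%, where Cbx7 held 1.97%.

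The 250 bases before the chosen starts of Cbx7 (chr15:79932647-79932896, minus strand, 23 CpG dinucleotides) and Cbx8 (chr11:119040914-119041163, minus strand, 22 CpG dinucleotides) are shown as the pair of readers that moved furthest apart. The Cbx7 window adjoins the locus in the deposited files but lies well inside the RefSeq span, downstream of its outermost start, and the Cbx8 window lies just outside the span of its gene. Which start of Cbx7 was used was not analysed here.
Cbx7: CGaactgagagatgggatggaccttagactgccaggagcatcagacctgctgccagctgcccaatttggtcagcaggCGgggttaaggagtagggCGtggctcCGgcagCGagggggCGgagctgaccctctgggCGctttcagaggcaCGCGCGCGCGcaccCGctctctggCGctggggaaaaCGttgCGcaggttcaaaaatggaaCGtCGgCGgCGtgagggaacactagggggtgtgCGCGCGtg
Cbx8: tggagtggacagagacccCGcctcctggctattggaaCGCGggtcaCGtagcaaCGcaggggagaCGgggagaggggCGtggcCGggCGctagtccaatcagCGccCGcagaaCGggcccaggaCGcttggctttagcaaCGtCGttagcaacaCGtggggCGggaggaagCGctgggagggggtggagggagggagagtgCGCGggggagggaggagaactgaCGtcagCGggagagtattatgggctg

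**Figure D3:**
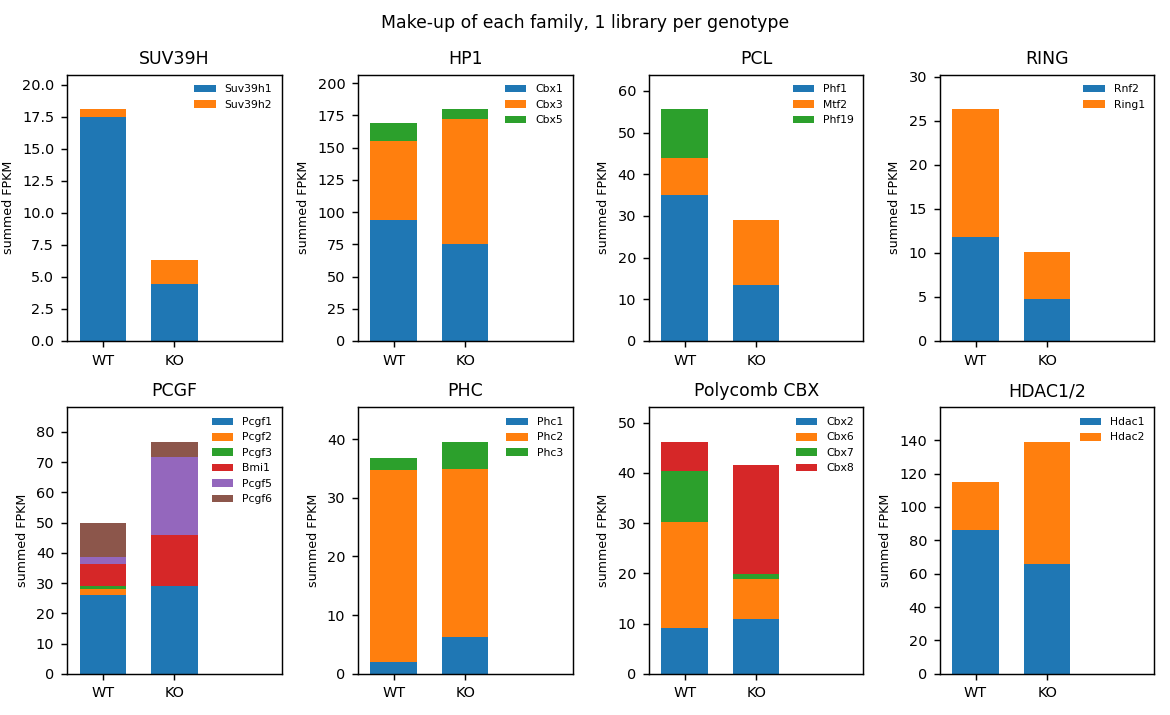
Summed FPKM (y axis, its range set per panel) of 8 families in the wild-type and KO libraries, stacked by gene, 1 library each. The PCGF bar gains Pcgf5, the Polycomb CBX bar passes from Cbx6 and Cbx7 to Cbx8, and the RING sum falls from 26.3 to 10.1.

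Promoter windows of 250 bases were found for 39 of the 42 members, all but Pcgf1, Cbx2 and Hdac1. A window was called CpG-rich at a GC content of at least 50% and an observed to expected CpG ratio of at least 0.6. That held for 31 of 39 members (79.5%), against 31.0% of all 32851 RefSeq windows. The sets are unlike: each member has 1 chosen window, while the background holds every listed start, also of genes not measured here. The share over measured genes was not computed, so this contrast is not a result about the members. It held for 9 of 9 members that fell, 4 of 7 that rose and 17 of 21 that stayed within the rule. When any start of a gene could count, it held for 6 of 7 that rose. The letters TTTCCCGC or TTTGGCGC, 2 forms of the E2F motif, were searched on both strands. They occurred in the windows of Phf19, Cbx3 and Suz12, 7.69% of members and 1.30% of all windows. The same unlike background applies, and these matches describe the letters only.

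The deacetylases and LSD1, which remove active marks in several corepressor complexes, gave 1 call. Hdac2 (chromosome 10, 36974297 to 37001889) rose from 29.2 to 73.3, 2.59-fold higher (interval 2.44 to 2.74). Its log2 ratio of 1.30 was 0.97 with upper quartiles set equal. Of 804 genes with a wild-type FPKM from 23.4 to 36.6, 5.35% rose as far as Hdac2. Its paralogue Hdac1 had 86.0 and 65.5. Hdac2 was 25.4% of their sum (wild type) and 52.8% (KO). RefSeq names 1 pseudogene after Hdac1. Kdm1a, which encodes LSD1, had 21.7 and 21.4, on 1797 and 813 reads.

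**Figure D4:**
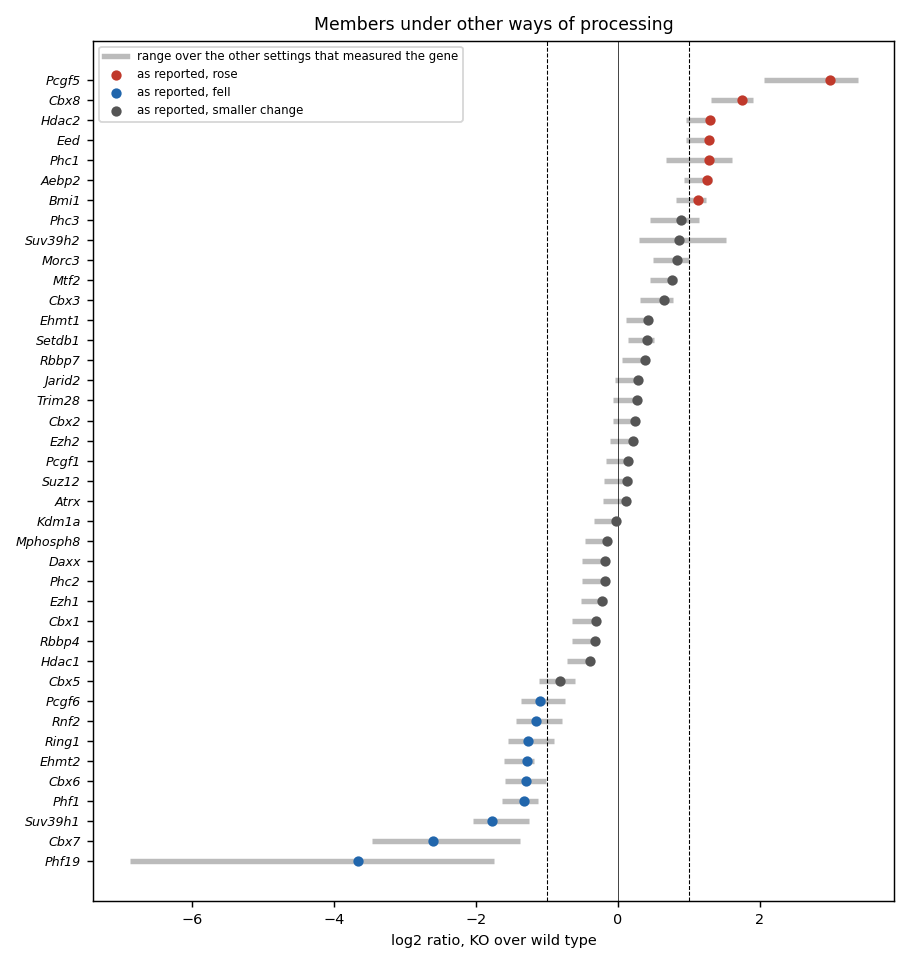
Log2 ratio of KO to wild type (x axis) for the 40 measured members (y axis), as reported (points) and over the other pseudocounts, filters and scalings tried (grey bars). Dashed lines mark the size rule at -1 and 1. The bars of Pcgf5, Cbx8, Ehmt2, Cbx6, Phf1, Suv39h1, Cbx7 and Phf19 stay beyond the lines.

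The partners of these complexes, from lists of 108 further genes, gave 17 risen and 16 fallen among 96 measured (34.4%, against 44.9% of all genes). Of 13 H3K9 and HUSH partners 2 rose and 4 fell. Wiz, which binds the G9a and GLP enzymes, rose from 7.80 to 26.2. The HUSH genes Pphln1 and Morc2a fell, from 9.998 to 2.46 and from 9.89 to 3.84, and Trim33 from 4.97 to 1.51. Of 8 measured H3K9 demethylases 3 rose and 1 fell. Kdm3b rose from 4.15 to 12.5, Kdm4a from 1.75 to 6.29 and Jhdm1d (Kdm7a) from 1.40 to 4.82, while Kdm4b fell from 9.42 to 2.34.

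The H3K27 demethylase Kdm6a fell from 4.91 to 0.904, on 1058 and 94 reads, and Kdm6b had 14.1 and 12.8. Of 19 PRC1 partners 4 rose and 2 fell (31.6%, against 44.9% of all measured genes). Scmh1 rose from 0.217 to 7.03, on 16 and 258 reads, and L3mbtl2, of the PCGF6 variant, from 4.76 to 21.7. Kdm2b, the CpG-binding partner of PCGF1, fell from 7.71 to 2.27, and Tfdp1 from 4.33 to 1.37. Among 10 genes that take ubiquitin off H2A or assist in it, 2 rose and 1 fell. Usp21 fell from 16.1 to 3.11, Foxk2 rose from 5.53 to 12.6 and Usp16 from 17.4 to 36.1. Bap1, the catalytic subunit, had 17.7 and 32.2.

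Corepressor subunits of CoREST, NuRD and SIN3 had 3 risen and 5 fallen of 27 (29.6%, against 44.9% of all measured genes). No partner list was tested against that share. Sap130 rose from 3.40 to 18.7. Sap30, also of SIN3, fell from 10.02 to 2.24, Mta3 of NuRD from 53.0 to 19.2, and Rcor3 of CoREST from 6.30 to 1.80. In the 7 other measured deacetylases 2 rose and 2 fell (57.1%, against the same 44.9%). Hdac3, the enzyme of the NCoR complex, fell from 32.0 to 6.59 and Hdac8 from 3.09 to 0.0412 on 161 reads and 1. Hdac4 rose from 1.05 to 8.85 and Hdac6 from 5.49 to 15.7. Of 10 histone H3 chaperone genes 1 rose, Cabin1, from 8.67 to 23.9. In that list Ubn1 had 18.1 and 36.1, Asf1a 7.50 and 4.11, and Asf1b 49.7 and 73.7.

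**Figure D5:**
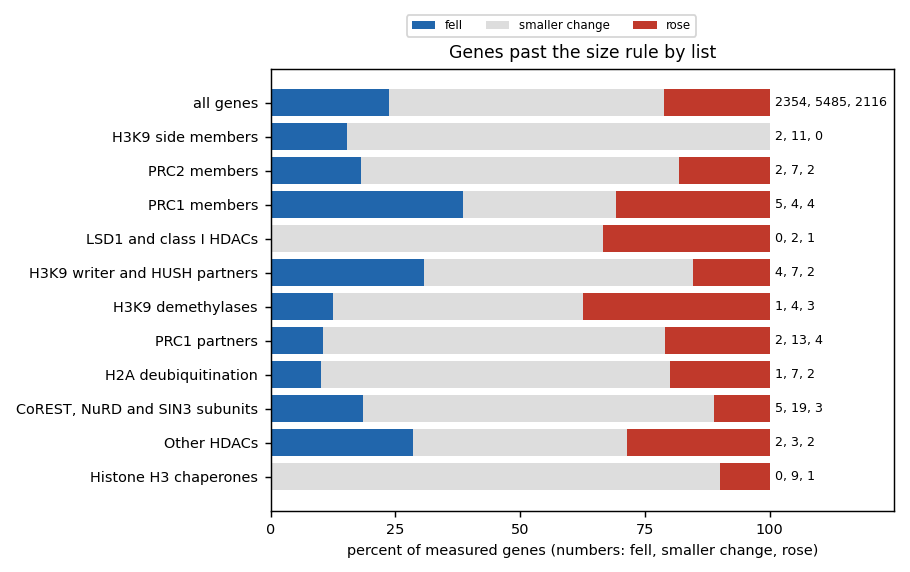
Percent of measured genes (x axis) that fell, changed less or rose, for all genes, 4 groups of members and 7 partner lists (y axis), with the counts at the right. The H3K9 side shows 2 falls and no rise of 13, and PRC1 shows 5 falls and 4 rises of 13. Over all measured genes 23.6% fell and 21.3% rose. Fam208a, which fell under its older symbol, is not counted.

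Most of the listed developmental genes found, which Polycomb keeps silent in most somatic cells, stayed low in both libraries. Of 70 names, 41 were found, and 27 of these had no read in either library, as had 3139 of all 16386 genes. An FPKM of 1 was reached by 3 of them in each library. Hoxa7 had 6.73 and 12.8, and Hoxb9 fell from 2.70 to 0, on 199 reads and 0. Nkx2-2 had 0 and 31 reads and Nkx2-1 11 and 32 reads, with 1.27 FPKM each in the KO. Hoxb4 went the other way, at 1.253 and 0.124 FPKM on 85 and 4 reads. Cdkn2b, a cell cycle inhibitor under Polycomb control, had 0 and 8 reads. Hoxb4, Nkx2-1, Nkx2-2 and Cdkn2b were named after their values were seen.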

How the data were processed

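Per the labels' protocols, stained thymus cells were sorted on an Aria II, lysed in Trizol and made into TruSeq RNA libraries. The submitters' processing notes name Cufflinks (2.1.1), TopHat2 (2.0.9) and the build mm10. The annotation, filters and use of strand are not stated there. The authors deposited FPKM per gene. They also deposited a scaled signal headed as a count, brought to a common total, whose values are mostly multiples of 0.799 (wild type) or 1.70 (KO). Division by these steps gave reads, whole within 0.01 of a read (or the files' rounding) for 98.4% and 98.8% of nonzero genes and for all 42 members. No count model was fitted.

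The members and lists were chosen with earlier results of these data known. All members, Uhrf1 and the up to 4 largest changes of each partner list are named. Coordinates, names and promoters are from RefSeq GRCm38.p6 (mm10). The steps were tested on simulated data. No protein sequences were used here. Software was scipy 1.17.1, numpy 2.4.6, matplotlib 3.10.9 and pandas 2.3.3 under Python 3.11.15. Of the other settings tried, 12 were listed at the outset and 2 (without X-linked members, without shared loci) were chosen after seeing the data.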

Additional observations from a re-analysis of the deposited data

How the results depend on the processing

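No paired analysis was possible because each genotype has 1 library; for the same reason none could be left out. Of 16 members past the size rule, 8 stayed past it under every other pseudocount, filter and scaling that measured them. Under a size rule of 2, 1 member rose and 2 fell, and 3 partner genes rose and 2 fell, against 17 and 17 as reported with the developmental genes included. A size rule of 0.5 gave 12 members risen, and 29 partner genes risen and 31 fallen. With a pseudocount of 5, 4 members rose, and 8 partner genes rose and 5 fell. The median of members was -0.020 at a mean FPKM of at least 5, where 8 partner genes fell. With upper quartiles set equal 3 members and 11 partner genes rose and the median was -0.18, which is 0.14 above that of all genes. No call changed sign. Leaving out the 7 members at shared loci gave 7 risen and 8 fallen of 33. The counts of calls moved by less than 1.5 times under all settings not named here. Measured members had 115 to 13523 reads in the wild type, and 22 to 7149 in the KO beside the 0 of Phf19. The cause of these moves was not tested, except that stricter and looser rules and fewer measured genes change counts by construction.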
